A study of Mus musculus with 46 samples.

Results

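The comparison described here set the response of MC-38 tumors to a PD-1 antibody against their response to deletion of the PD-1 gene. For each gene, the antibody response was the log2 change from isotype control to PD-1 Ab-treated tumors, the deletion response was that from WT to PD-1cKO tumors, and the second was subtracted from the first. It used 30 of the 46 samples in the series, and 11813 of the 48795 genes in the table: those annotated as protein-coding whose group mean reached 1 FPKM or more at least once in each study. A positive difference means that the antibody response was the higher of the pair, and a negative one that the deletion response was.

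RNA-seq was run on whole tumors of MC-38, a mouse colon carcinoma line, grown under the skin of the right flank of C57/BL6NTac mice; the mice of the tumor growth experiments were female and 8 to 10 weeks old. In the antibody study, 5 wild-type mice received an isotype control and 5 received the anti-mouse PD-1 antibody muDX400 at 5 mg/kg, 2 doses each, with tumors labelled day 8; the methods place them at day 15 after implant. In the deletion study, 10 PD-1cKO mice were compared with 10 WT littermates. In PD-1cKO mice loxP sites flank exons 2 and 3 of Pdcd1, and a tamoxifen-activated Cre expressed from Rosa26 in all tissues removes them. Both groups received tamoxifen at 40 mg/kg on 5 consecutive days, with tumors labelled day 28. The paper's table and main figure of the RNA-seq also give day 28 after implant, while its methods name day 22. Mice of the antibody study received no tamoxifen. The studies thus differed in day, in tamoxifen, in mouse cohort and in their libraries, and these cannot be told apart from the kind of PD-1 loss; for that reason each response was taken against the controls of its own study, and levels were set side by side across studies only as descriptions. Short noncoding RNA made up 0.06% to 0.08% of the FPKM of the antibody study and 31.3% to 66.9% of that of the deletion study, and mitochondrial genes 3.0% to 4.17% against 0.39% to 1.61% of the protein-coding FPKM, so samples were rescaled over protein-coding genes. All values below are rescaled FPKM, or log2 values with 0.1 FPKM added first.

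PD-1 is an inhibitory receptor on activated T cells. When its signal is lost, by a blocking antibody or by deletion, T cells in the tumor can expand and release interferon gamma (IFNγ), a cytokine that acts through its receptor on tumor cells, macrophages and other cells nearby. Among the genes it turns on are 2 families of GTPases, the guanylate-binding proteins and the immunity-related GTPases, which act against intracellular microbes and serve as a readout of IFNγ exposure in tissues. Type I interferons turn on a partly shared set of antiviral genes.

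Elements known from promoters of interferon-induced genes are TTCNNNGAA (GAS, the gamma-activated sequence) and a repeat of GAAA with 2 bases of any kind between the copies (ISRE, the interferon-stimulated response element). The windows below are the 250 bases before the transcription start of 5 GTPase genes, shown because these families held the largest gap between the responses among the interferon lists; Gbp2b and Gm5431 were called for the difference, and the other 3 were called in the antibody response. The sequences are from RefSeq, build GRCm38.p6, 5′ to 3′ on the strand of the gene, with matches to either element on either strand in capitals.
Gbp2b: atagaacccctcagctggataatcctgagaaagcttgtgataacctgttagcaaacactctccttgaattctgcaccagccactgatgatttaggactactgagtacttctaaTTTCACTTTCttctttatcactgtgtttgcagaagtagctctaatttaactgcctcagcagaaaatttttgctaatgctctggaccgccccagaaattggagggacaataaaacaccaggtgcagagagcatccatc
Irgm2: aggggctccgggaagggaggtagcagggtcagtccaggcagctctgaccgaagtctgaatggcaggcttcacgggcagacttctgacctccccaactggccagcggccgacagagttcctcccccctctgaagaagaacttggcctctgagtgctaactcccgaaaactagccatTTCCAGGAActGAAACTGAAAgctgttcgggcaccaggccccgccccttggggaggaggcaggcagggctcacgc
Igtp: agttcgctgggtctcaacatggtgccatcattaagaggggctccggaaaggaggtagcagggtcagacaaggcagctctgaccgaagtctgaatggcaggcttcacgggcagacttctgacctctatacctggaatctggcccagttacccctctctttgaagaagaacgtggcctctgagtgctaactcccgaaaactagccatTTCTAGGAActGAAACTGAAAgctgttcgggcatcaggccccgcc
Tgtp2: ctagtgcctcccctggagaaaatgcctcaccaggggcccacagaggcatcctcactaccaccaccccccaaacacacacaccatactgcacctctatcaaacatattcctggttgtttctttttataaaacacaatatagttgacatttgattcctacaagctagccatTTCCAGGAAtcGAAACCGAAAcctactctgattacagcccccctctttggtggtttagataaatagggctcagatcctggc
Gm5431: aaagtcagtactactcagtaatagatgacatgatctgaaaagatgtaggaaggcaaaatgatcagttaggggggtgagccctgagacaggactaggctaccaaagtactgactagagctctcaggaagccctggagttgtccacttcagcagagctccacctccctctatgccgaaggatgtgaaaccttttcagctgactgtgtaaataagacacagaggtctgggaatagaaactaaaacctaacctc
The Gbp2b window lies on the plus strand at chr3:142594597-142594846 and holds 1 ISRE match. Irgm2 (chr11:58214727-58214976, plus strand), Igtp (chr11:58199306-58199555, plus strand) and Tgtp2 (chr11:49064213-49064462, minus strand) each hold a GAS match followed after 2 bases by an ISRE match, at -75 and -64, -45 and -34, and -81 and -70 from the start. The Gm5431 window (chr11:48902153-48902402, minus strand) holds neither. Of the windows in the table, 1 or both elements were present in 5 of 5 guanylate-binding protein genes, 6 of 10 immunity-related GTPases and 13 of 22 type I interferon-stimulated genes, and in 1 of 11 genes of the T-cell receptor complex and T-cell lineage, against 11.1% of all 27025 genes with a window. They were present in 3 of 10 of the other IFNγ-induced enzymes, ligands and chemokines. Of the 13 genes called for the difference that have a window, 0 hold a GAS match and 4 an ISRE match (30.8%, against 3.5% of all), and the 3 windows above with both elements are of genes not called for the difference. A match describes letters only, and binding was not measured.

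The targeted gene was examined first. Pdcd1, which encodes PD-1, stood at 1.06, 1.16, 1.63, 2.09 and 2.75 in isotype control tumors and at 4.21, 9.91, 12.1, 14.5 and 15.6 in PD-1 Ab-treated tumors. In the deletion study it ranged from 1.77 to 6.88 (median 3.08) in WT and from 5.70 to 27.0 (median 8.96) in the tumors labelled PD-1cKO. It was thus higher, not lower, under the PD-1cKO label, by 1.66 ± 0.26 (SE) on the log2 scale (adjusted p = 4.83e-05). The value of a whole gene also holds the exons that the deletion leaves in place, so it does not check the deletion of exons 2 and 3. The difference between responses was 0.92 ± 0.46 (SE; 95% interval -0.01 to 1.86, adjusted p = 0.336).

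Across genes the responses ran in parallel. Their Pearson correlation over the 11813 genes was 0.726, 74.6% of genes had the same sign in both, and the SD of the responses across genes was 0.621 for the antibody and 0.613 for the deletion. Genes are not independent replicates, so this r is a description; the responses share no sample. The antibody response had 1293 genes called at an adjusted p under 0.05, 10.9% of those tested (1113 higher, 9.42%, and 180 lower, 1.52%), and the deletion response 6058, or 51.3% (2871 higher, 24.3%, and 3187 lower, 27%). Of these, 955 were called in both, 868 of them higher in both, 80 lower in both and 7 in opposite directions. With the stricter limits of a 2-fold change and an adjusted p under 0.01, the antibody response had 545 genes (4.61%; 539 higher, 4.56%, and 6 lower, 0.0508%) and the deletion response 1068 (9.04%; 743 higher, 6.29%, and 325 lower, 2.75%). The fit shares 1 estimate of the spread among the 4 groups, so the groups of 5 give the antibody response the larger error. By group, the median SD over genes was 0.449 in PD-1cKO tumors and 0.207 to 0.24 in the others. With a weight for each group, 3274 genes were called in the antibody response and 5367 in the deletion response. The unequal counts therefore do not show that one response was broader.

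**Figure D1:**
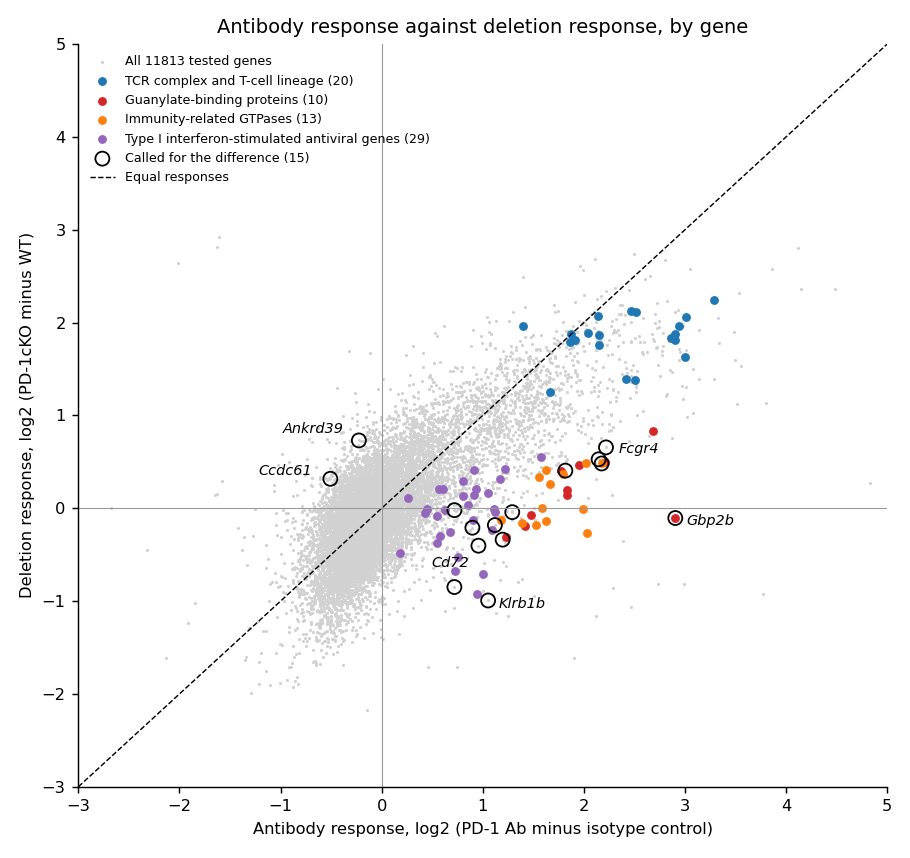
Each point is a gene, with its antibody response on the x axis and its deletion response on the y axis, both in log2 units; coloured points are members of 4 gene lists, rings are the 15 genes called for the difference and the dashed line marks equal responses. T-cell genes lie high on both axes, whereas guanylate-binding proteins and immunity-related GTPases lie far to the right and near 0 on the y axis, with median deletion responses of 0.17 and 0.01.

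The difference itself was called for 15 genes, 0.127% of those tested: 13 with the higher antibody response (0.11%) and 2 with the higher deletion response (0.0169%). At an unadjusted p under 0.05 there were 1789. None passed the stricter limits. The median SE of a difference was 0.262 on the log2 scale, with a 95% interval of 0.535 to either side. In simulated data with 200 genes changed, the fit recovered 47.5% of genes given a difference of 1 and 92.5% of those given 2. Differences of less than 2-fold were thus often not detectable. These shares belong to the simulation and need not hold here, where far fewer genes were called. An absolute difference of at least 1 was seen in 368 genes (3.1%). Tgtp1 (2.30 ± 0.60) and S100a8 (-4.65 ± 1.124) exceeded 2 in size without a call. All 13 genes with the higher antibody response had a lower mean in PD-1cKO than in PD-1 Ab-treated tumors, and their median response was 1.2 to the antibody and -0.10 to the deletion.

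Removal of single tumors moved these counts. Without isotype replicate 1, which had the lowest mean level of the isotype group in the GTPase and type I interferon lists, 1 gene was called (Ccdc61) and the 13 genes with the higher antibody response had adjusted p-values from 0.0587 upward with their directions kept. Without PD-1cKO replicate 9, 239 genes were called (101 higher and 138 lower), the 15 among them. The labels name no run: runs were made here by splitting the numbers of the sample identifiers at large gaps. Run 1 holds 7 PD-1cKO tumors and no WT tumor, run 2 holds 1 with 9 WT, and run 3 holds 2 with 1 WT. With the run as a covariate, the 7 PD-1cKO tumors of run 1 do not enter the deletion response, which rests on runs 2 and 3. No gene was called in that fit (2149 at an unadjusted p under 0.05), and of the 15 genes none changed sign.

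Gbp2b showed the largest difference among the called genes. It encodes a guanylate-binding protein (ENSMUSG00000040264, chr3:142594847-142619179, GRCm38). Its level was 2.60, 2.87, 3.83, 4.94 and 12.1 in isotype controls and 22.8, 24.9, 42.1, 42.6 and 44.1 after the PD-1 antibody, so every treated tumor lay above every control. WT tumors ranged from 5.59 to 14.2 (median 9.32) and PD-1cKO tumors from 2.06 to 19.2 (median 9.44), and the ranges overlapped almost wholly. The antibody response was 2.90 ± 0.44 (SE) and the deletion response -0.11 ± 0.31, a difference of 3.01 ± 0.54 (adjusted p = 0.0132). Its level in PD-1cKO tumors reached that of no PD-1 Ab-treated tumor.

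In other called interferon genes, as in Gbp2b (mean 9.11 in WT and 5.27 in isotype tumors), the WT level already stood above the isotype level. Dtx3l, an E3 ubiquitin ligase that pairs with the ADP-ribosyltransferase Parp9 in interferon signaling, had means of 11.6 ± 4.31 in isotype and 27.0 ± 1.66 in PD-1 Ab-treated tumors (SD, n = 5), but 25.7 ± 4.33 in WT and 25.8 ± 8.31 in PD-1cKO tumors (SD, n = 10). Gm5431, a predicted immunity-related GTPase on chromosome 11, rose from 1.15 ± 0.545 to 5.36 ± 1.65 with the antibody and from 3.37 ± 0.788 to 4.79 ± 1.22 with the deletion. Slfn8, of the interferon-inducible Schlafen family, had means of 6.96 and 15.5 in the antibody study and of 11.9 and 10.9 in the deletion study. For these 3 genes the differences between responses were 1.33 ± 0.28, 1.69 ± 0.33 and 1.30 ± 0.26 (SE; adjusted p = 0.0355, 0.0219 and 0.0338). In each the control groups, and not the treated groups, were the farther apart between the studies. In Gm5431, 37.3% of the 50-base stretches of its transcripts also occur in other genes, 14.6% in Slfn8 and 38.1% in Sp140, so their reads can be split between copies.

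In the other 8 genes with the higher antibody response described next, whose known roles vary, the treated groups were the farther apart between the studies. Fcgr4, an activating Fc receptor for IgG on monocytes and macrophages, was at 17.2, 23, 31.7, 34.4 and 46.7 in isotype controls and at 78.8, 141, 154, 156 and 167 after the antibody. Its range was 25.9 to 49.2 (median 37.3) in WT and 37.8 to 89.6 (median 59.2) in PD-1cKO tumors, 8 of which exceeded every WT tumor. The gene rose in both responses, by 2.22 ± 0.23 and 0.66 ± 0.16 (SE), with a difference of 1.56 ± 0.28 (adjusted p = 0.0132).

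Cd72, a C-type lectin that inhibits B-cell signaling and is also found on myeloid cells, moved in opposite directions. The 5 isotype tumors had 37.3 to 58.2 and the 5 PD-1 Ab-treated tumors 65.8 to 106, with no overlap, whereas 5 of 10 PD-1cKO tumors (15.8 to 31.2) lay below the lowest of the WT tumors (21.8 to 49.1). The antibody response was 0.96 ± 0.20 and the deletion response -0.40 ± 0.14 (SE; adjusted p = 0.00153 and 0.018), a difference of 1.36 ± 0.24 (adjusted p = 0.0132). Klrb1b, an inhibitory NK-cell receptor also transcribed in myeloid cells, rose by 1.05 ± 0.35 with the antibody and fell by 0.99 with the deletion, a difference of 2.05 ± 0.43 (adjusted p = 0.0355). Its values ran from 5.31 to 12.3 in isotype, 13.9 to 23.1 in PD-1 Ab-treated, 4.44 to 11.6 in WT and 1.61 to 6.61 in PD-1cKO tumors, so 6 PD-1cKO tumors lay below every WT tumor. Some 27.2% of its 50-base stretches are shared with other genes.

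Aif1, which encodes the macrophage protein Iba1, had means of 35.8 ± 12.4 and 80.9 ± 20.1 in the antibody study (SD, n = 5) and of 33.1 ± 7.39 and 26.7 ± 8.35 in the deletion study (SD, n = 10). Dnase1l3, a DNase secreted by dendritic cells and macrophages, rose in both responses, by 2.15 and 0.53, and the difference was 1.62 ± 0.32 (SE, adjusted p = 0.0304). Sp140, a nuclear body protein of lymphoid and myeloid cells, rose from 13.4 ± 1.70 to 25.0 ± 2.93 with the antibody, against 16.3 ± 2.53 and 14.3 ± 3.41 in WT and PD-1cKO. Ppt1, a lysosomal thioesterase, rose by 0.72 with the antibody and had a deletion response of -0.02, the smallest of the called differences at 0.74 ± 0.16. Ms4a4c, of the membrane-spanning MS4A family, fell by 0.85 in PD-1cKO tumors and had an antibody response of 0.72 (adjusted p = 0.089), a difference of 1.57 ± 0.34. In bulk tissue fewer cells of a type and less RNA per cell cannot be told apart.

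**Figure D2:**
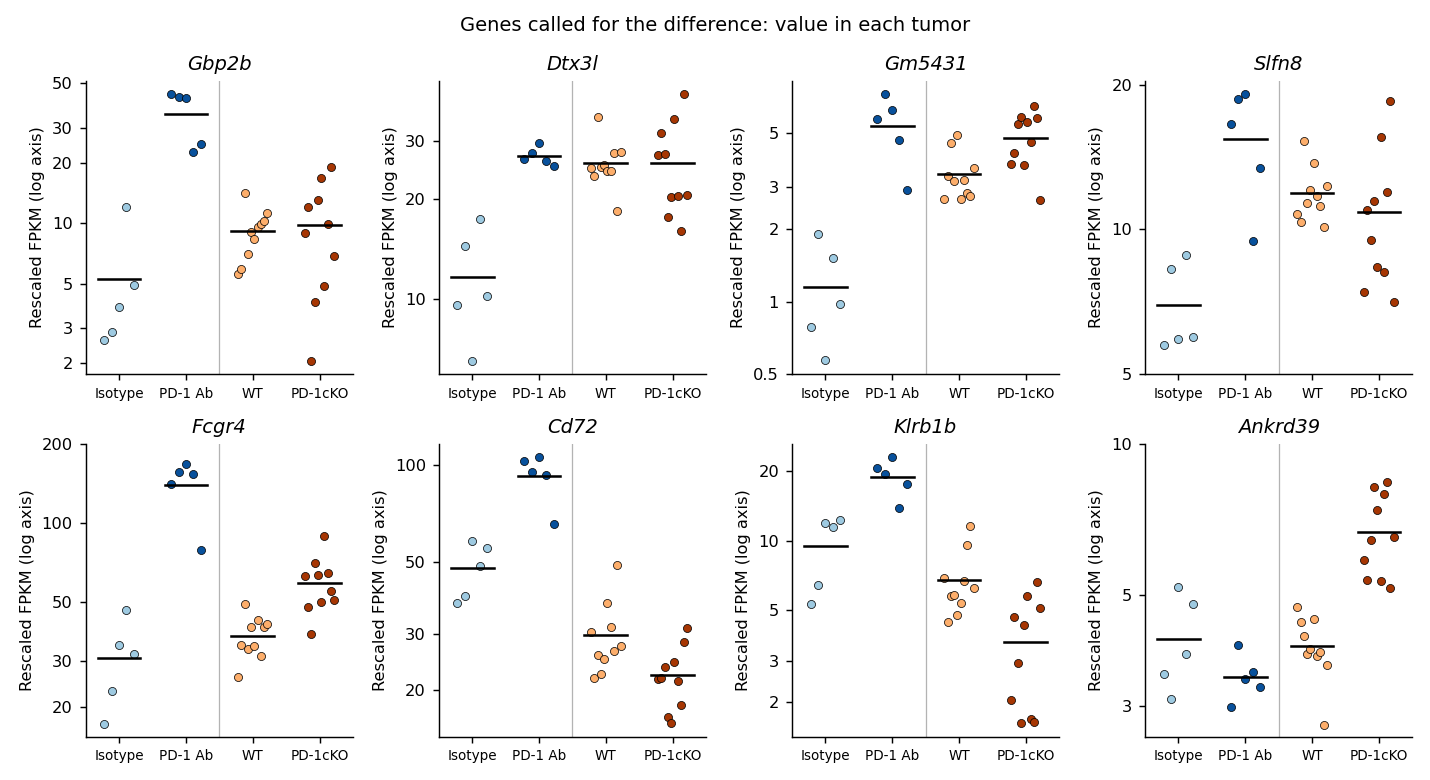
Rescaled FPKM on a log axis for 8 of the 15 called genes, 1 point per tumor in the isotype control (5), PD-1 Ab (5), WT (10) and PD-1cKO (10) groups, with a bar at the group mean. For Dtx3l, Gm5431 and Slfn8 the WT points lie above most isotype points, for Fcgr4, Cd72 and Klrb1b the PD-1cKO points lie mostly below the PD-1 Ab points, and for Ankrd39 all 10 PD-1cKO points lie above every WT point.

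The 2 genes with the higher deletion response were of another kind. Ccdc61, a coiled-coil protein of centrioles and basal bodies, stood at 6.70 to 10.5 in isotype and 5.04 to 6.46 in PD-1 Ab-treated tumors, without overlap, and rose from 3.80 to 5.00 in WT to 4.64 to 6.63 in PD-1cKO tumors, 8 of which exceeded every WT tumor. Its responses were -0.51 ± 0.12 and 0.32 ± 0.09, a difference of -0.82 ± 0.15 (SE, adjusted p = 0.0132). Ankrd39, an ankyrin repeat protein, was higher in all 10 PD-1cKO tumors (5.16 to 8.40) than in any WT tumor (2.76 to 4.73), a deletion response of 0.73 ± 0.11, while its antibody response was -0.23 ± 0.16 (adjusted p = 0.351). The difference was -0.96 ± 0.20 (adjusted p = 0.0355). Next in order, without a call, were Egr2, an early response transcription factor (-1.26 ± 0.28, adjusted p = 0.0507), Rab3gap1 (-0.88 ± 0.19, 0.0507), Agap3 (-0.76 ± 0.17, 0.059) and Fam160a2 (-0.78 ± 0.18, 0.0602). Rab3gap1 means were 145 and 74.3 in the antibody study but 18.9 and 18.4 in the deletion study, a gap between studies that exceeds either response.

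The gene lists placed these genes in a wider pattern. In the T-cell list (receptor complex and lineage genes), all 20 tested members rose in both responses, with medians of 2.44 and 1.87 against -0.10 and -0.06 over all genes. None was called for the difference, whose median was 0.40 (0.03 over all genes), and 3 of 20 had an unadjusted p under 0.05. Cd8a, a chain of the CD8 coreceptor, went from 1.45, 1.93, 2.83, 3.06 and 3.61 to 8.52, 20.6, 22.3, 27.6 and 33.2 with the antibody, and from 2.23 to 11.4 (median 3.29) in WT to 6.68 to 33.8 (median 14.7) in PD-1cKO. Its responses were 3.01 ± 0.39 and 2.06 ± 0.28, and the 95% interval of their difference, -0.03 to 1.92, leaves room for none and for nearly 2 log2 units. Icos, a costimulatory receptor, had the highest difference in the list (1.38 ± 0.55, adjusted p = 0.237) and Cd247, the receptor zeta chain, the lowest (-0.56 ± 0.54, adjusted p = 0.616).

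Cytotoxic effector genes rose in 17 of 19 cases with the antibody and in 14 of 19 with the deletion (medians 2.46 and 1.57), and again none was called for the difference. Within that list Gzmg and Gzmd, granzymes whose transcripts share 19.8% and 21.9% of their stretches with other genes, had the highest differences (2.74 ± 1.10 and 2.11 ± 0.96) and Tbx21, the T-bet transcription factor, the lowest (0.05 ± 0.48). Among coinhibitory receptors 9 of 10 rose with the antibody and 8 of 10 with the deletion. Havcr2, the inhibitory receptor TIM-3, came nearest to a call there (1.16 ± 0.26, adjusted p = 0.059): its antibody response was 1.56 and its deletion response 0.40. Ifng itself rose in both, by 2.46 ± 0.37 and 1.19 ± 0.26, from 0.450 to 1.96 in isotype to 4.26 to 10.1 after the antibody and from 0.605 to 3.36 in WT to 1.32 to 3.98 in PD-1cKO, with a difference of 1.27 ± 0.45 (adjusted p = 0.181).

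The GTPase families departed from the T-cell genes. All 10 guanylate-binding proteins rose with the antibody (median 1.84, range 1.23 to 2.90) and none was called with the deletion (median 0.17, range -0.31 to 0.84). All 10 differences were positive at an unadjusted p under 0.05, with a median of 1.63, where 831 of the 11813 genes reached that; 1 was called after adjustment over all genes, Gbp2b. Without PD-1cKO replicate 9, 8 were called, without isotype replicate 4, 5, and without isotype replicate 1 or with the run covariate, none, while the median difference was 1.73, 1.88, 1.47 and 1.86. Gbp10 and Gbp6 share 84.1% and 70.7% of their stretches with other genes, so the members are not independent readings.

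Immunity-related GTPases followed the same course. The antibody response was called higher for 12 of 13 (median 1.63) and the deletion response for 1, Gm5431 (median 0.01), and 12 of the 13 differences had an unadjusted p under 0.05 (median 1.55). Tgtp1 had the highest difference (2.30 ± 0.60, adjusted p = 0.0955), with 81.2% of its stretches shared with other genes, and F830016B08Rik the lowest (1.21 ± 0.74, adjusted p = 0.425). The count of called differences was 1, and 10 without PD-1cKO replicate 9, 7 without isotype replicate 4 and 0 without isotype replicate 1. In both families the controls of the deletion study stood above those of the antibody study, for all 10 and all 13 members, by a median of 1.22 and 1.17. PD-1cKO tumors stood below PD-1 Ab-treated tumors by less, with medians of -0.34 and -0.60, in 8 of 10 and 10 of 13 members. Gbp2 had the same gap between controls but was among the 2 guanylate-binding proteins with a higher mean in PD-1cKO than in PD-1 Ab-treated tumors: its means were 79.6 in isotype, 262 after the antibody, 289 in WT and 354 in PD-1cKO tumors, and WT tumors (157 to 440) spanned the whole range of PD-1 Ab-treated ones (248 to 273).

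**Figure D3:**
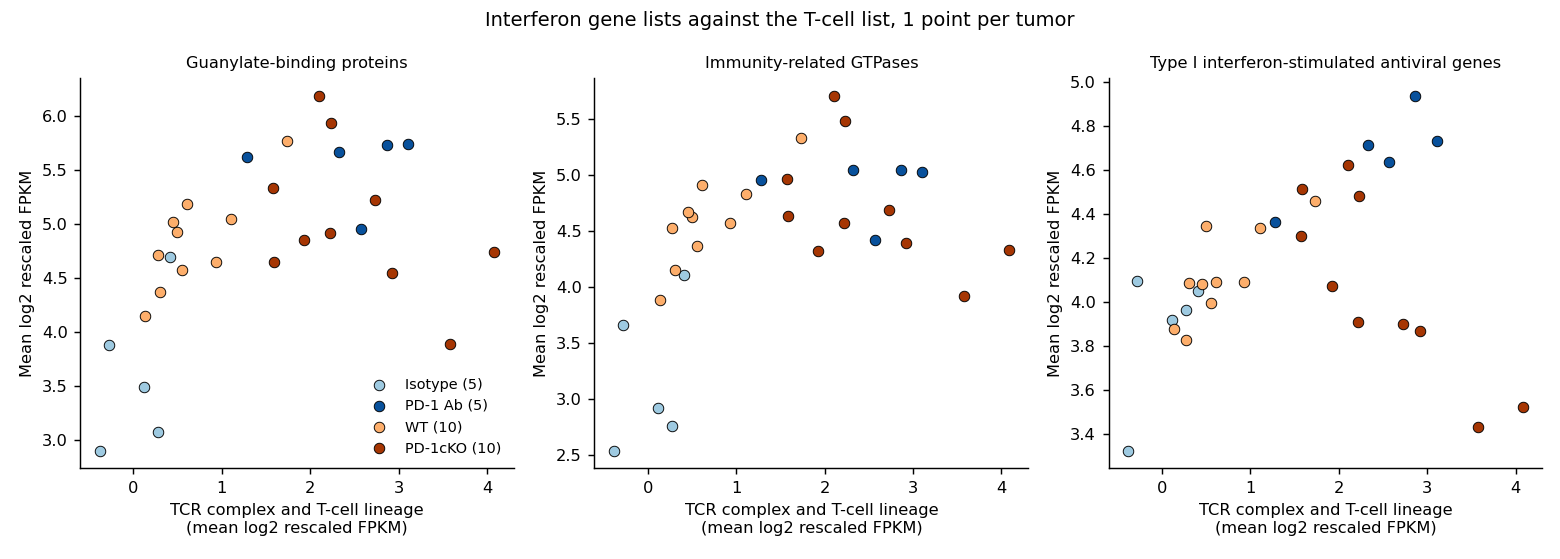
Mean log2 rescaled FPKM of 3 interferon gene lists (y axes) against that of the T-cell list (x axis), 1 point per tumor in 4 groups. Of the isotype points, 4 of 5 lie below every WT point on the GTPase axes at low T-cell levels and replicate 4 lies among WT, and PD-1cKO points extend to the right at GTPase levels within or near the range of WT.

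Within runs, each contrast has an arm of 1 tumor, so the values are given with no test and do not separate the run from the deletion. The PD-1cKO tumor of run 2 differed from its 9 WT tumors by -0.06 for guanylate-binding proteins, -0.22 for immunity-related GTPases, -0.60 for type I interferon-stimulated genes and 3.42 for the T-cell list. Run 3 (2 PD-1cKO, 1 WT) gave 0.33, 0.10, 0.26 and 1.403, and run 1 holds no WT tumor. Single genes varied more: in run 2 Gbp10 differed by 2.11 and Gbp2 by -1.24.

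Type I interferon-stimulated antiviral genes rose in 14 of 29 cases with the antibody (median 0.81). With the deletion 1 was higher and 4 were lower (Ifit3, Ifit3b, Ifih1 and Ddx58, sensors and effectors of antiviral defence named here after their values were seen), with a median of -0.01. Over all tested genes the deletion response was called higher for 24.3% and lower for 27%, so neither count exceeds the share over all genes. All 29 differences were above 0 and 21 had an unadjusted p under 0.05, but none was called. Ifit3b and Ifit3 were highest, at 1.86 ± 0.46 and 1.71 ± 0.39 (adjusted p = 0.0786 and 0.059), though these paralogs share 45% and 51.2% of their stretches with other genes, and Ifi35 was lowest at 0.15 ± 0.26. Here it was the treated groups that stood apart: the median of PD-1cKO against PD-1 Ab-treated tumors was -0.66 and that of WT against isotype 0.32. Without isotype replicate 1 the antibody response was called for 9 of the 29, and without PD-1cKO replicate 9 the difference was called for 9.

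Other IFNγ-induced genes were mixed. Of 15 enzymes, ligands and chemokines, 12 rose with the antibody and 11 with the deletion (medians 1.52 and 0.96), and none was called for the difference. Ido1, a tryptophan-degrading enzyme, and Pdcd1lg2, the PD-1 ligand PD-L2, had the highest differences (2.14 ± 0.80 and 1.89 ± 0.62, adjusted p = 0.214 and 0.151), although Pdcd1lg2 rose in both. Cxcl16, the ligand of CXCR6, and Gch1, which makes a cofactor of nitric oxide synthase, had the lowest (-0.19 ± 0.32 and -0.40 ± 0.38). Genes of MHC class I presentation had small medians in both responses (0.36 and 0.30), and MHC class II genes rose in 10 and 9 of 12 cases (medians 1.29 and 0.91). Cd86, a costimulatory ligand of antigen-presenting cells in the class II list, had a difference of 1.37 ± 0.32 (adjusted p = 0.0602), with a response of 1.403 to the antibody and 0.04 to the deletion.

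**Figure D4:**
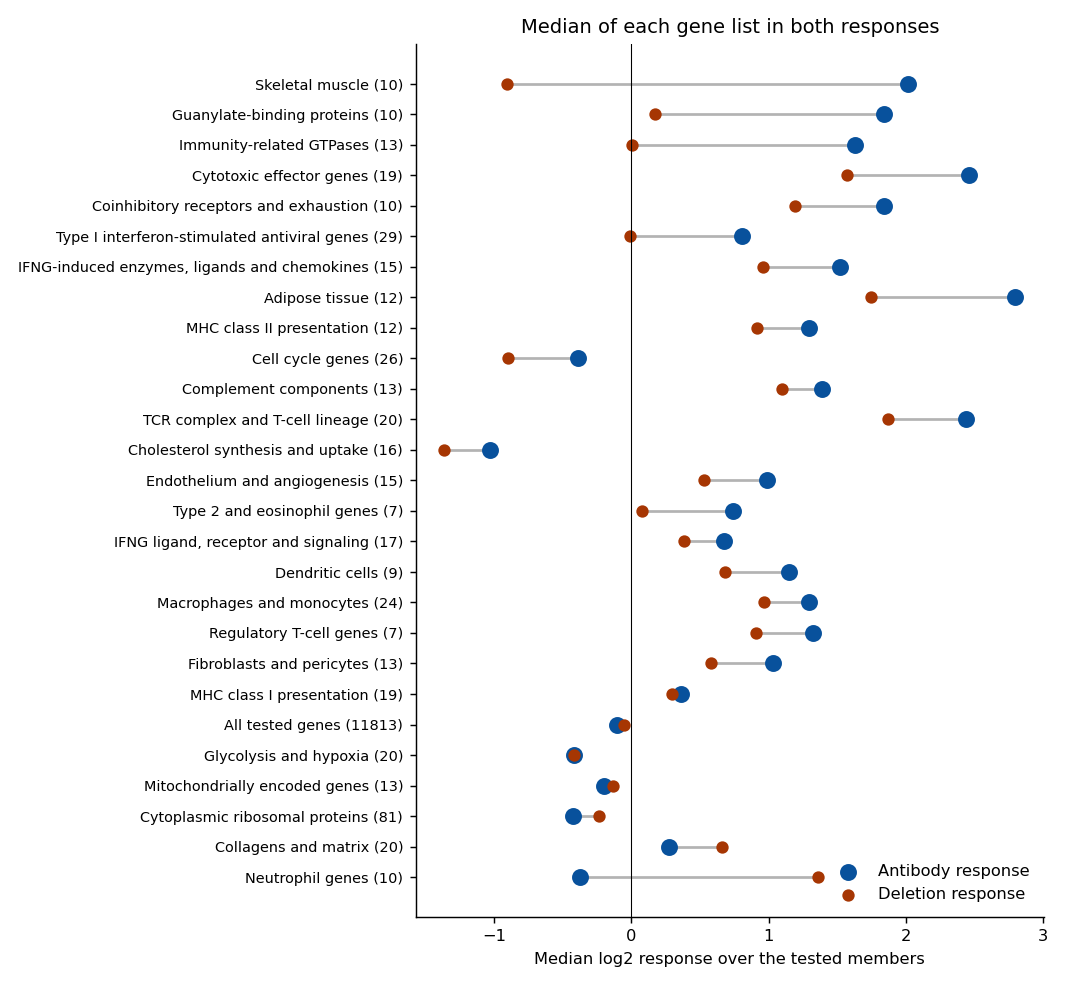
Median log2 response of each gene list with at least 7 tested members, the number tested in parentheses, for the antibody (blue) and the deletion (brown); lists are ordered by the median difference. T-cell, cytotoxic, macrophage, complement and adipose lists are among those high in both. The GTPase and type I interferon lists are high for the antibody and near 0 for the deletion. The neutrophil list has a high median for the deletion alone (-0.37 for the antibody and 1.36 for the deletion), with members that went both ways.

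Macrophage and monocyte genes rose in 16 of 24 cases with the antibody and 19 of 24 with the deletion (medians 1.29 and 0.97), with Fcgr4 the only called difference. With the deletion 2 of the 24 were called lower, where 27% of all tested genes were. Gpnmb, a glycoprotein of lipid-laden macrophages, lay at the other end (-1.34 ± 0.70, adjusted p = 0.351). Its mean went from 31.9 ± 9.33 to 215 ± 279 in the deletion study (SD, n = 10). In the antibody study it went from 23.3 ± 4.82 to 36.3 ± 11.15 (SD, n = 5). The SD in PD-1cKO tumors exceeded their mean, and the deletion response was 1.96 ± 0.40 on the log2 scale (SE). The summed level of 6 defining macrophage markers ran from 639 to 1120 in isotype, 1220 to 2470 in PD-1 Ab-treated, 915 to 1580 in WT and 1220 to 6120 in PD-1cKO tumors. The median of that sum was 1230 in WT and 2950 in PD-1cKO tumors, while Cd72, Klrb1b and Ms4a4c fell in PD-1cKO tumors. Aif1 had a deletion response of -0.34 (adjusted p = 0.0984). Whether the number of macrophages has a part in these falls was not tested.

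Neutrophil genes had the lowest median difference of the lists, -1.05 over 10 genes, with no call in the fit of all tumors. The list was split, with 4 of 10 differences above 0. With the antibody 2 members were called higher and 1 lower, and with the deletion 6 higher and 2 lower. Over all tested genes the antibody response was called higher for 9.42% and lower for 1.52%, and the deletion response for 24.3% and 27%. The lower calls with the deletion thus do not exceed the share over all genes. The marker Csf3r had medians of 2.90 in isotype, 12.7 in PD-1 Ab-treated, 1.93 in WT and 4.28 in PD-1cKO tumors. S100a8, an alarmin of neutrophils, stood at 0.672, 1.79, 3.30, 3.71 and 4.33 in isotype and 0.341, 0.437, 0.466, 0.625 and 0.697 in PD-1 Ab-treated tumors, and 4 of the 5 treated tumors lay below every control. In PD-1cKO tumors it ranged from 1.42 to 203 (median 3.34) against 0.531 to 4.57 in WT (median 0.950), and 3 tumors, with 41.5, 46.9 and 203, carried most of it. The difference was -4.65 ± 1.124 (adjusted p = 0.0731). Chil3, a chitinase-like protein of alternatively activated macrophages and neutrophils, differed by -4.52 ± 1.115 (adjusted p = 0.0773), with a deletion response of 2.92 and an antibody response of -1.61 (adjusted p = 0.248). Both were called without PD-1cKO replicate 9 (adjusted p = 0.0344 for S100a8 and 0.0252 for Chil3) and with a weight for each group (0.0117 and 0.037), and neither without isotype replicate 1 (0.159 and 0.144). The sum of 7 neutrophil markers was 5.32 to 13.7, 7.13 to 24.8, 4.69 to 16.0 and 9.15 to 487 in isotype, PD-1 Ab-treated, WT and PD-1cKO tumors.

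Stromal and growth genes differed in the counts of calls but not in called differences. Collagens and matrix genes rose in 2 of 20 cases with the antibody and 14 of 20 with the deletion (medians 0.27 and 0.66); 7 differences were negative at an unadjusted p under 0.05, Col3a1 most (-1.42 ± 0.51, adjusted p = 0.199). No cell cycle gene of 26 was called with the antibody and 22 fell with the deletion (medians -0.39 and -0.89), and no difference between them reached an unadjusted p under 0.05 (median difference 0.48). That depended on the setting: 15 of 26 reached it with the run covariate, where the median difference was 1.22. With a weight for each group 10 of 26 reached it, and none was called in either setting. In the run covariate fit the PD-1cKO tumors of run 1 do not enter the deletion response. The cell cycle list differed by -2.605 between PD-1cKO and WT in run 2 (1 PD-1cKO tumor) and by -0.218 in run 3. Cholesterol synthesis genes fell in 4 of 16 and 15 of 16 cases (medians -1.03 and -1.36). Counts with unequal group sizes do not show that the responses differ, and for these lists the difference itself gave no call in the fit of all tumors (1 collagen or matrix gene was called without PD-1cKO replicate 9).

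Tissue carried with the tumor varied beside these results. The summed level of 5 skeletal muscle markers was 0.767 to 1.4 in isotype, 1.76 to 56.9 in PD-1 Ab-treated, 1.31 to 281 in WT and 0.871 to 938 in PD-1cKO tumors, and the muscle list had the largest median difference of any list, 3.21, with no call among 10 genes. Of 4 adipose markers the sum was 1.11 to 13.2, 4.16 to 97.8, 0.916 to 21.9 and 1.01 to 402. The adipose list had a median response of 2.80 to the antibody, the highest of any list, and of 1.74 to the deletion. Of its 12 tested genes, 1 was called higher with the antibody (9.42% over all genes) and 5 with the deletion (24.3% over all genes). None was called for the difference. Epithelial keratins and Epcam, listed beforehand as markers of MC-38 cells, summed to 0.698 to 79.8 over the 4 groups. The median sum was 3.54 in isotype, 30.6 in PD-1 Ab-treated, 1.49 in WT and 1.94 in PD-1cKO tumors. Such medians are low for tumors grown from MC-38 cells, so the sum was not read as MC-38 content. The part of these tissues in the differences was not tested. The run of identifiers is a grouping made here from the sample identifiers and not a stated batch.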

How the data were processed

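RNA was extracted from whole tumors, and stranded total RNA libraries depleted of ribosomal RNA were read as pairs of 50 bases. The authors aligned reads with OSA in Omicsoft Array Studio to mouse genome B38, quantified Ensembl genes and deposited FPKM, fragments scaled to gene length and to mapped reads; the deposited table holds no counts, so the depth of each sample is not known from it, no count test could be used and precision is the spread between tumors.

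All columns were assigned to samples by the labels. Symbols, coordinates and gene types came from GENCODE M21 (99.3% of identifiers matched). Samples were rescaled by median-of-ratios factors over 21772 protein-coding genes. limma 3.58.1 in R 4.3.3 fitted 4 group means to log2(FPKM + 0.1) with an empirical Bayes trend, and p-values were adjusted by Benjamini-Hochberg over the 11813 genes tested. Fold changes on this scale understate those of low genes. The fit was tested on simulated data, with 200 genes changed. Replicates are separate tumors in the labels; nothing ties them to cages or litters.

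The comparison, gene lists and alternatives were chosen with earlier results of these data known. Genes named were the first 12 called higher and all called lower by moderated t (then the next 4 lower as values), Ms4a4c as the only other call (1 called gene is not reported here), Pdcd1, the genes named for RNA-seq by the study, the members of each list with the highest and lowest difference, and others said to be chosen after their values. Promoters were searched in 250 bases before the start, and shared sequence is the share of 50-base stretches of GENCODE transcripts found in other genes. Alternatives covered scaling, pseudocount, filter, spread, weights, block, run, limits of a call and each tumor left out.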

Additional observations from a re-analysis of the deposited data

Results flagged for a closer look

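Of 124 groups examined (25 genes and 6 list levels, in 4 groups each), 16, or 12.9%, had a tumor whose gap to its nearest neighbour exceeded Dixon's critical value at 95%. Chance flags about 1 in 20 where values are normal and groups independent. FPKM of many genes in the same tumors need not be either, so the share does not show an excess of outliers. The values below are rescaled FPKM, or mean log2 levels for lists, with the nearest other tumor of the group in parentheses.

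WT replicate 3 stood above the other WT tumors in Cd8a at 11.4 (4.16), in Ifng at 3.36 (1.24) and in Pdcd1 at 6.88 (4.03). PD-1 Ab replicate 4 was low in the guanylate-binding protein list at 4.95 (5.62) and the immunity-related GTPase list at 4.42 (4.96). Isotype replicate 4 was high in Gbp2b at 12.1 (4.94) and low in the neutrophil list at 1.66 (2.57), and isotype replicate 1 was low in the type I interferon list at 3.33 (3.92). Isotype replicate 3 was high in Fam160a2 at 16.9 (10.3).

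PD-1cKO replicate 7 held 203 of S100a8 (46.9), replicate 4 held 420 of Chil3 (207) and 7.41 of Egr2 (5.18), and replicate 5 held 16.2 of Dnase1l3 (10.1). WT replicate 9 was high in Ppt1 at 41.3 (33.4) and in S100a8 at 4.57 (2.18) and low in Agap3 at 26.6 (33.4).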

How the results depend on the processing

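The count of 15 differences became 56 with FPKM as deposited (54 higher and 2 lower), 41 without a filter on low values, 112 with a weight for each group, 3020 with a weight for each sample, 51 without the 3 tumors of run 3, 0 with the run of identifiers as a covariate and 0 at the stricter limits; the stricter limits lower a count by construction, and for the other settings the cause was not tested. The antibody response moved from 1293 to 3274 with group weights, 7250 with sample weights and 545 at the stricter limits, and the deletion response from 6058 to 1068 at those limits. The group weights follow the wider spread among PD-1cKO tumors, whose median SD over genes was 0.449 against 0.207 to 0.24 in the other groups. With 1 tumor left out, the difference had 1 to 239 calls, the antibody response 740 to 1738 (740 and 790 without PD-1 Ab replicates 2 and 3), the deletion response 5391 to 6617, the correlation across genes 0.688 to 0.763 and the deletion response of Pdcd1 1.51 to 1.78. Beside isotype replicate 1 (1 call) and PD-1cKO replicate 9 (239), the count of differences moved by over 1.5 times without isotype replicates 3 (8) and 4 (58), PD-1 Ab replicates 1, 2 and 3 (6 each), 4 (31) and 5 (35), WT replicates 3 (8), 7 and 10 (9 each), and PD-1cKO replicates 2 (28), 6 (37) and 8 (23). The replicate numbers did not pair the tumors (correlations of deviations from -0.306 to 0.187); with the replicate block 4 genes were called for the difference. Not rescaling shifted the median difference over all genes from 0.03 to 0.24 and the share of higher calls in the deletion response from 47.4% to 31.5%, and changes are read relative to that shift. With the run as a covariate the median difference of the T-cell list was -0.25, where it was 0.40 without it. The PD-1cKO tumors of run 1 do not enter the deletion response of that fit.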

Other observations

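Complement components, most of them made by macrophages and stroma, rose with both forms of PD-1 loss. The antibody response was called higher for 8 of 13 and the deletion response for 13 of 13, with medians of 1.39 and 1.10. C3, the central component, had the highest difference (1.18 ± 0.59, adjusted p = 0.339), with means of 9.15 in isotype, 70.3 in PD-1 Ab-treated, 69.7 in WT and 222 in PD-1cKO tumors.

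The plot of interferon lists against the T-cell list drew attention to the PD-1cKO tumors alone, and 3 relations across these 10 tumors were computed after seeing it. For type I interferon-stimulated genes Pearson's r was -0.84 and Spearman's rho -0.79, for guanylate-binding proteins -0.46 and -0.43 and for immunity-related GTPases -0.51 and -0.45. Without the 2 tumors farthest from the median T-cell level, replicates 4 and 8, r was -0.62, -0.09 and -0.16 (n = 8), so for the GTPase lists it rests on those tumors. The plot that prompted these relations shows the same tumors, so they are descriptions and no p-value is given. The lists share their libraries and scaling, and no cause was tested.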
